A study of Homo sapiens with 24 samples.

Results

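OS-LM1 and 786-M1A, a pair of metastatic cell lines of clear cell renal cell carcinoma (ccRCC), were compared in the libraries that carry sgNTC18, a non-targeting guide RNA, so that no PAX8 depletion was involved. The comparison rests on 8 of the 24 RNA-seq libraries of the series, 4 labelled OS-LM1 sgNTC18 and 4 labelled 786-M1A sgNTC18, which were chosen by their titles. The other 16 libraries carry shPAX8-1 or shPAX8-2, RNAi constructs against PAX8, in the same lines and served as a further measurement of the difference between the lines. 786-M1A descends from the line 786-O and OS-LM1 from OS-RC2, each selected for metastasis. Both parental lines carry mutant VHL, both derivatives carry a luciferase transgene, and the cultures were kept in RPMI with 10% FBS. Each group is therefore a single line from a single tumour, and nothing in the labels says whether the 4 replicates were separate cultures, so that p-values measure only the spread between these libraries.

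Clear cell renal carcinoma arises from the proximal tubule of the nephron. Loss of VHL, the ubiquitin ligase component that marks hypoxia-inducible factors for destruction, leaves HIF2A (encoded by EPAS1) and, in some tumours, HIF1A active in normal oxygen. PAX8 is a transcription factor that specifies the renal lineage and that remains expressed in these tumours. Lines derived from different patients differ in copy number, in silenced genes and in the signalling state of the culture, and all of these enter a comparison of their transcripts.

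The sum of expected counts lay between 17808799 and 31140267 in the 786-M1A libraries, against 32918698 to 37086335 in those of OS-LM1. Every OS-LM1 library was deeper than every 786-M1A library, so depth and line cannot be told apart, and the results were recomputed with all libraries thinned to the same total. The first principal component of log2 CPM (CPM, counts scaled to the TMM-adjusted size of the library) held 92.1% of the variance and separated the lines. Pearson correlations of log2 CPM between replicates were between 0.984 and 0.991 across genes, and every pair of replicates differed by more than sampling noise (chi-square per gene between 7.15 and 43.8). OS-LM1 replicate 2 stood furthest from the others of its group.

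PAX8 was read in every library. Its level was 259, 287, 241 and 255 CPM in the 4 OS-LM1 libraries and 293, 395, 362 and 322 CPM in the 4 of 786-M1A. All 786-M1A libraries were above all OS-LM1 libraries, and the difference was 1.32-fold (log2 −0.40 ± 0.09 SE, adjusted p = 0.00064, edgeR). With each library's trend with gene GC content removed the difference was −0.11 (adjusted p = 0.11), so the PAX8 call was lost. The mean PAX8 level was 78.2 CPM with shPAX8-1 and 79.2 with shPAX8-2 in OS-LM1, and 18.7 and 42.4 CPM in 786-M1A, so that the depleted libraries were below the sgNTC18 libraries in both lines.

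The labelled cell type was checked against defining markers. Of 9 renal epithelial and ccRCC markers, 1 was under 1 CPM in OS-LM1 and 2 in 786-M1A. KRT18 stood at 213 ± 7.9 CPM in OS-LM1 and 213 ± 11 in 786-M1A (SD, n = 4 each), and KRT8 at 236 ± 19 and 244 ± 31 CPM. Vimentin (VIM) stood at 10126 ± 1198 CPM in OS-LM1 and 8784 ± 86 in 786-M1A. The absent markers were NDUFA4L2, a HIF target that stood at 0.56 CPM in OS-LM1 and 0.17 in 786-M1A, and CA9, which had no count in 786-M1A. Of 12 immune markers 10 were under 1 CPM in each line, PTPRC among them, and of 8 endothelial markers 8 were under 1 CPM in OS-LM1 and 7 in 786-M1A. Of 10 fibroblast markers 8 were under 1 CPM in OS-LM1 and 7 in 786-M1A, and COL1A2, COL3A1, DCN and PDGFRA had no count in 786-M1A. Summed over the list, immune markers lay between 77.6 and 91.6 CPM in OS-LM1 and between 187 and 219 in 786-M1A, nearly all of it CD68. Endothelial markers lay between 0.95 and 1.45 CPM and between 1.73 and 4.28, and fibroblast markers between 16.4 and 23.1 CPM and between 539 and 731, where PDGFRB made up most of the sum in 786-M1A. In cultures measured in bulk, fewer cells of a kind and less RNA per cell cannot be told apart.

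Most expressed genes differed between the lines. Of 14967 genes that passed the filter on low counts, 10538 differed at an adjusted p under 0.05, which is 70.4% of those tested, with 35.4% higher in OS-LM1 and 35.1% higher in 786-M1A. At a minimum of 2-fold, 4196 genes (28.0%) differed, 2049 higher in OS-LM1 (13.7%) and 2147 higher in 786-M1A (14.3%). The median absolute log2 fold change over all genes tested was 0.57, against a median SE of 0.11. At a minimum of 32-fold, a log2 difference of 5, the split was 339 genes higher in OS-LM1 and 194 higher in 786-M1A. These folds are fitted values, which depend on the fit for genes without a count in a line. POSTN, without a count in 786-M1A, had a log2 fold change of 8.62. With 3 counts per library as the floor it was at least 13.3-fold higher in OS-LM1. The deeper OS-LM1 libraries could also enter this split, which was not tested. Below, a gene is called higher only where it passed this edgeR test, and each list of genes is to be read against these shares.

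The widest differences were between genes read in one line and nearly silent in the other. With a limit of under 0.1 CPM in all 4 libraries of a line and at least 5 CPM in all 4 of the other, 55 genes were read in OS-LM1 alone and 44 in 786-M1A alone, of which 32 and 18 had no count at all in the other line. The level of the former ran from 5.57 to 182 CPM (median 13.1) and of the latter from 5.90 to 225 CPM (median 12.5).

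In OS-LM1, SFRP2, a secreted antagonist of Wnt ligands, stood at 174, 162, 201 and 193 CPM and had no count in 786-M1A. With 3 counts per library as the floor, its level was at least 1453-fold higher in OS-LM1. ADD2 (beta-adducin, a membrane skeleton protein) was at least 734-fold higher, TMEM98 at least 660-fold, the RNA MAFIP at least 612-fold and AJAP1, a protein of adherens junctions, at least 522-fold. The protocadherin PCDH20, the transporter SLC16A9, the fibrinogen chain FGG, the synaptic adhesion protein LRFN4 and the long non-coding RNA HEIH completed the set of 10, with bounds from 189-fold for HEIH to 353-fold for PCDH20. None of the 10 had a count in any 786-M1A library.

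In 786-M1A, SLC17A9, the vesicular nucleotide transporter, stood at 183, 288, 225 and 206 CPM without a count in OS-LM1, at least 2561-fold higher. The metallothionein MT1E stood at 176, 203, 202 and 191 CPM, against a total of 2 counts in the 4 OS-LM1 libraries. PDGFRB, a receptor for platelet-derived growth factor, stood at 535, 725, 590 and 592 CPM in 786-M1A and at 0.08, 0.27, 0.03 and 0.09 CPM in OS-LM1, a ratio of 5213 with a 95% exact interval from 3210 to 9121 that covers counting error only. The other named genes were HDGFRP3, the phospholipid flippase ATP10A, the fatty acid elongase ELOVL2, METRN, the transcription factor TSHZ3, the G protein regulator RGS10 and the sulfotransferase CHST10. Of these, 6 had no count in OS-LM1 and METRN had a total of 1.

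Most of these genes kept their direction in the shPAX8 libraries, which share no sample with this comparison. Of the 55 genes read in OS-LM1, 54 were at least 2-fold higher in OS-LM1 there too, and the 44 read in 786-M1A were all at least 2-fold higher in 786-M1A. Over all genes tested there, the shares were 22.1% and 23.4%. Of the 55, 3 had means under 1 CPM in both OS-LM1 shPAX8 groups, and 2 reached 1 CPM in a 786-M1A shPAX8 group. For the 44 the same counts were 0 and 1. The exception among the 55 was NOG, a BMP antagonist, which stood at 0.24 and 0.19 CPM with shPAX8-1 and shPAX8-2 in OS-LM1 and at 0.67 and 0.84 CPM in 786-M1A. Its name was taken after its values were seen.

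**Figure D1:**
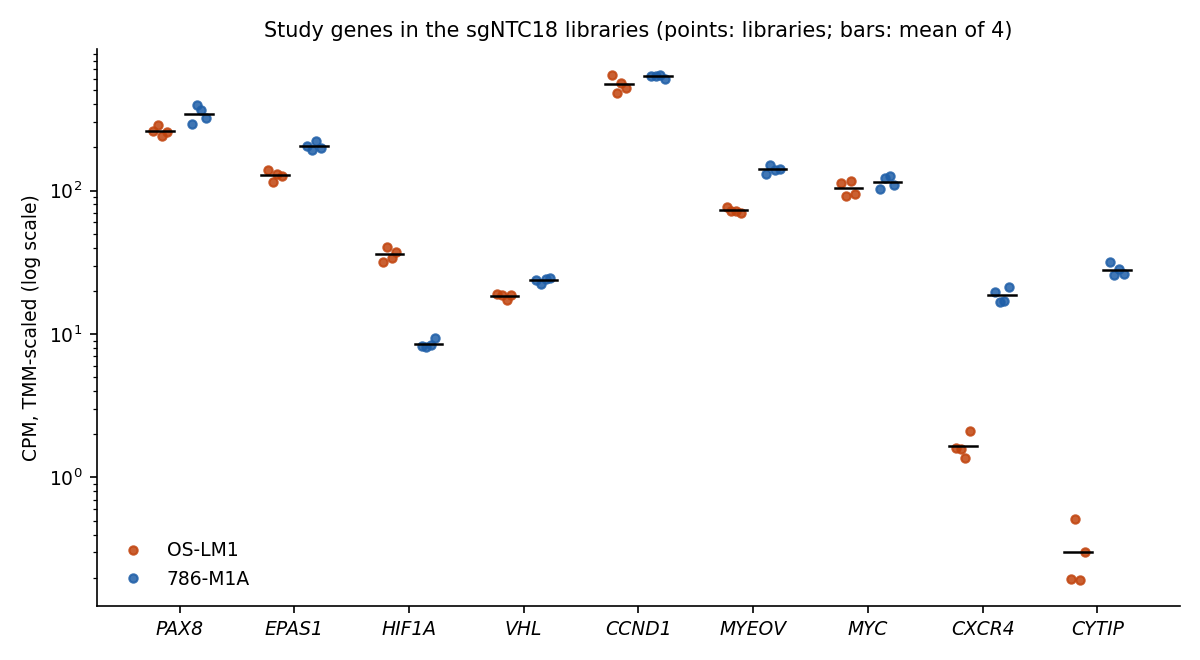
CPM (log axis) of 9 genes at the centre of the study in each of the 4 OS-LM1 (orange) and 4 786-M1A (blue) sgNTC18 libraries, with bars at the mean of 4. CXCR4 and CYTIP are more than 10-fold higher in 786-M1A in the edgeR fit. HIF1A is higher in OS-LM1, and the points of CCND1 and of MYC overlap between the lines.

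The genes at the centre of the study differed less than these extremes. EPAS1 was 1.59-fold higher in 786-M1A, at 204 ± 12 CPM against 128 ± 10 (SD, n = 4 each), and the groups did not overlap. HIF1A stood at 31.6, 40.3, 34.0 and 37.6 CPM in OS-LM1 and at 8.22, 8.17, 8.34 and 9.40 CPM in 786-M1A, a 4.20-fold difference (log2 2.07 ± 0.10 SE, adjusted p = 7.8e-12). The parental line 786-O is known for lacking functional HIF1A protein. VHL transcripts were 1.29-fold higher in 786-M1A, at 23.6 ± 0.99 CPM against 18.3 ± 0.76, which says nothing about the protein.

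CCND1, encoding cyclin D1, stood at 549 ± 69 CPM in OS-LM1 and 626 ± 18 in 786-M1A. The libraries overlapped, and its adjusted p of 0.046 did not hold in DESeq2 (adjusted p = 0.11) or without any 1 of 7 of the 8 libraries (0.054 to 0.22). The neighbouring gene MYEOV was 1.93-fold higher in 786-M1A, at 141 ± 8.9 CPM against 72.8 ± 3.0, without overlap. MYC stood at 113, 91.2, 117 and 95.3 CPM in OS-LM1 and at 102, 121, 126 and 109 CPM in 786-M1A and was not called (log2 −0.14 ± 0.09 SE, adjusted p = 0.19). CXCR4, a chemokine receptor linked to metastasis, was 11.1-fold higher in 786-M1A, at 19.6, 16.6, 16.9 and 21.2 CPM against 1.61, 1.57, 1.37 and 2.12. CYTIP, a cytohesin-binding protein of leukocytes, was 93.6-fold higher in 786-M1A, at 28.1 ± 2.8 CPM against 0.30 ± 0.15.

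Among 30 transcription factors of the renal lineage, 17 passed the filter, of which 6 were at least 2-fold higher in OS-LM1 and 3 in 786-M1A. PAX2, the paralogue of PAX8 in kidney development, was 3.24-fold higher in OS-LM1 (39.7 ± 3.1 against 12.3 ± 2.2 CPM) and TFAP2A 3.66-fold. WT1, a factor of nephron progenitors and podocytes, stood at 29.4, 29.4, 32.0 and 30.4 CPM in 786-M1A and at 0.06, 0.03, 0.25 and 0 CPM in OS-LM1. The factor MAF was 4.87-fold higher in 786-M1A.

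Proximal tubule genes were more often higher in OS-LM1. Of 23 members tested out of 43, 12 were at least 2-fold higher in OS-LM1 and 3 in 786-M1A, with a median log2 fold change of 1.25, against 0.00 over all genes tested. The other 20 members did not pass the filter on low counts. The glucuronosyltransferase UGT2B7 stood at 43.7, 47.7, 50.5 and 47.4 CPM in OS-LM1 and between 0.04 and 0.20 CPM in 786-M1A. The opposite was seen for the dicarboxylate transporter SLC13A3, at 18.3 ± 1.5 CPM in 786-M1A and 0.03 ± 0.04 in OS-LM1, and for the endopeptidase MME (neprilysin), 9.14-fold higher in 786-M1A. Of 30 genes of the distal nephron and collecting duct only 7 were tested, 2 at least 2-fold higher in each line.

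HIF target genes differed in both directions. Of 42 non-glycolytic HIF targets tested, 6 were at least 2-fold higher in OS-LM1 and 11 in 786-M1A, with a median log2 fold change of −0.24. With the GC trend removed, these counts were 6 in OS-LM1 and 7 in 786-M1A. PTHLH, encoding parathyroid hormone-related protein, was 5.53-fold higher in OS-LM1 (273 ± 7.1 against 49.4 ± 2.7 CPM) and LOX, a collagen crosslinking enzyme, 2.47-fold. ANGPTL4, a lipoprotein lipase inhibitor, was 8.23-fold higher in 786-M1A (13.8 ± 1.6 against 1.68 ± 0.28 CPM). CA9, the carbonic anhydrase used as a marker of ccRCC, stood between 5.97 and 6.85 CPM in OS-LM1, at least 51.0-fold higher than in 786-M1A, where it had no count. In the shPAX8 libraries of OS-LM1 its mean was 42.2 CPM with shPAX8-1 and 29.5 with shPAX8-2.

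Of 17 oxygen sensing genes tested, 2 were at least 2-fold higher in OS-LM1 and 0 in 786-M1A. These were HIF1A and ARNT2, a dimerization partner of HIF subunits, which was 5.07-fold higher (73.9 ± 6.4 against 14.5 ± 1.6 CPM). Glycolysis genes were mostly within 2-fold, with 3 of 24 higher in OS-LM1 and 2 in 786-M1A. PFKFB3, which sets the level of an activator of glycolysis, was 2.94-fold higher in OS-LM1 and ALDOC 2.85-fold. The glucose transporter SLC2A3 was 3.99-fold higher in 786-M1A and the phosphofructokinase subunit PFKL 2.28-fold.

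Genes of epithelial junctions and of the mesenchymal state both differed in either direction. Of 29 epithelial genes tested, 11 were at least 2-fold higher in OS-LM1 and 5 in 786-M1A (median log2 0.70), and of 31 mesenchymal genes 8 and 5 (median 0.21). E-cadherin (CDH1) stood at 11.0, 9.30, 9.67 and 9.60 CPM in OS-LM1 and between 0.08 and 0.31 CPM in 786-M1A. The desmosome genes PKP2 and DSP were read at 11.1 ± 0.92 and 15.8 ± 1.2 CPM in OS-LM1 and were under 0.2 CPM in each 786-M1A library. SPINT2, an inhibitor of membrane serine proteases, was 8.41-fold higher in 786-M1A and PKP3 3.75-fold. On the mesenchymal side, CDH11 stood at 8.42 ± 1.1 CPM in OS-LM1 against 0.03 ± 0.06, and TAGLN was 9.23-fold higher in OS-LM1, whereas PDGFRB and COL6A3 were higher in 786-M1A.

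The lines differed in which matrix genes they expressed. Of 19 collagen genes tested, 5 were at least 2-fold higher in OS-LM1 and 7 in 786-M1A. COL6A3 stood at 1098, 1031, 1086 and 990 CPM in 786-M1A and at 1.14, 2.51, 1.59 and 1.67 CPM in OS-LM1, a 612-fold difference, and the basement membrane chain COL4A1 was 113-fold higher in 786-M1A (101 ± 2.0 against 0.88 ± 0.30 CPM). COL5A2 was 77.1-fold higher in OS-LM1, and COL4A5 stood at 33.1 ± 4.6 CPM there against 0.05 ± 0.06. Of 30 integrin and laminin subunits, 8 were at least 2-fold higher in OS-LM1 and 2 in 786-M1A. The laminin chain LAMA4 stood at 30.1 ± 2.3 CPM in OS-LM1 against 0.22 ± 0.12, and the integrin subunit ITGB6 was 9.60-fold higher there. ITGB5 was 5.05-fold and LAMA3 2.74-fold higher in 786-M1A.

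Extracellular proteases differed in both directions, with 9 of 34 at least 2-fold higher in OS-LM1 and 12 in 786-M1A. The gelatinase MMP2 stood at 742, 789, 815 and 797 CPM in 786-M1A and at 42.2, 37.3, 43.0 and 38.1 CPM in OS-LM1, a 19.6-fold difference (log2 −4.29 ± 0.08 SE). MMP7, matrilysin, stood at 73.7, 89.2, 79.1 and 94.4 CPM in OS-LM1 and was 23.5-fold higher there. MMP13, a collagenase, was 42.6-fold higher in 786-M1A and MMP19 was read at 8.58 ± 0.30 CPM in OS-LM1 against 0.29 ± 0.21. Among 34 adhesion molecules, 10 were at least 2-fold higher in OS-LM1 and 6 in 786-M1A, MCAM (23.2-fold) and T-cadherin (CDH13, 18.4-fold) among the latter.

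**Figure D2:**
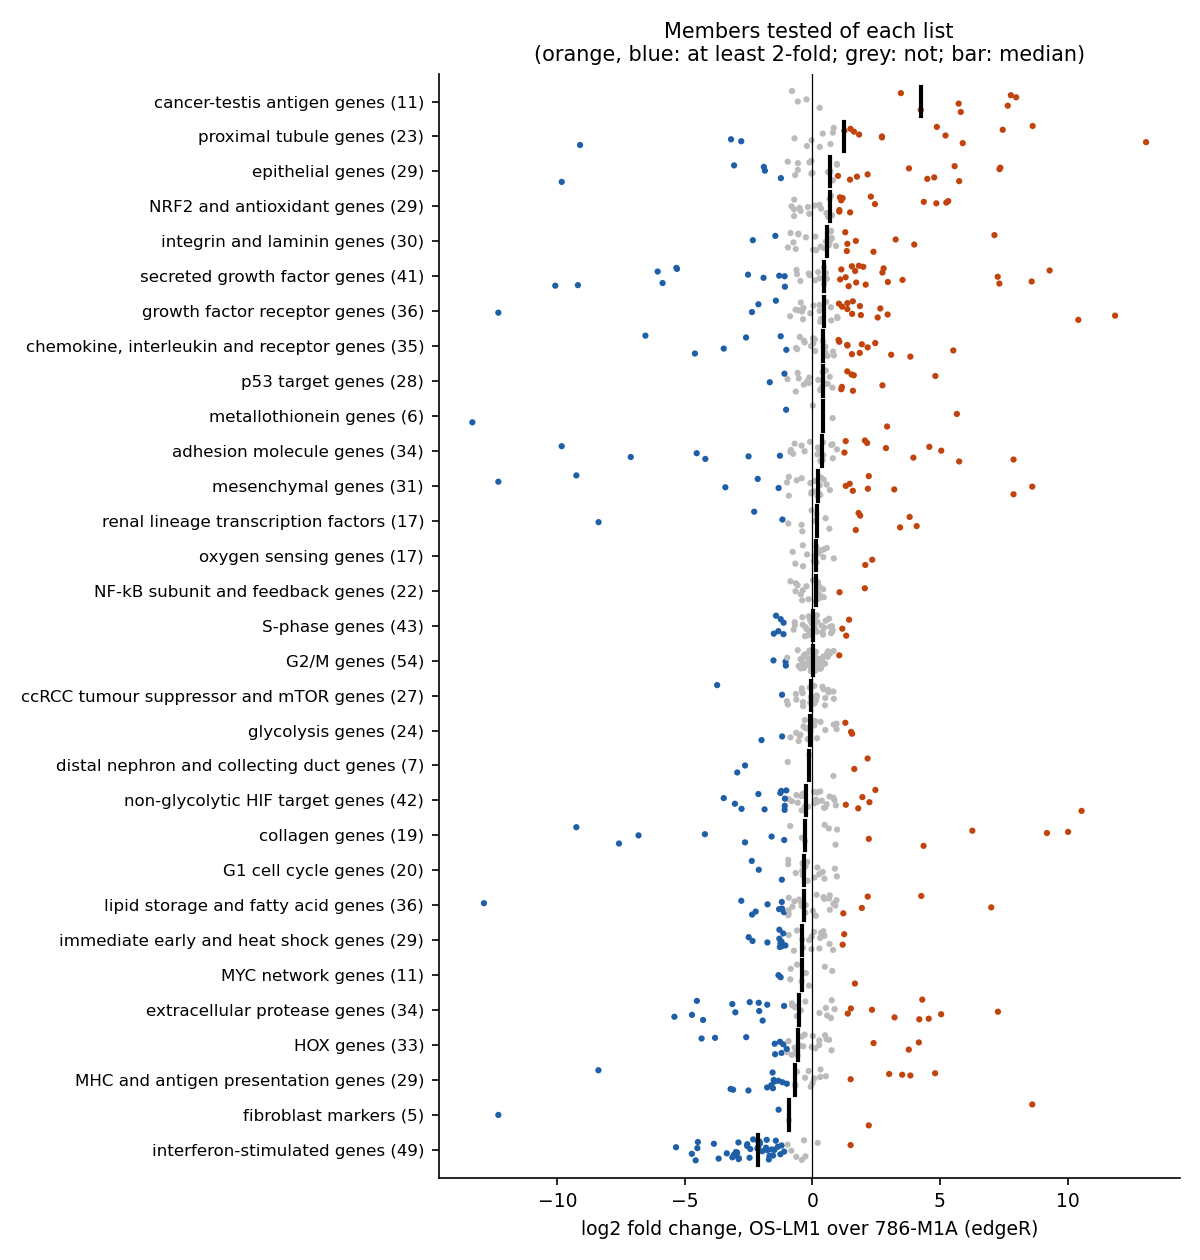
log2 fold change of OS-LM1 over 786-M1A (edgeR, x axis) for every tested member of the 31 lists with at least 5 members tested, whose number is given in brackets, with a bar at the median of each list. Orange and blue points are at least 2-fold higher in OS-LM1 and in 786-M1A, and grey points are not. The interferon-stimulated genes have the lowest median, −2.12, and folds against libraries without a count depend on the fit.

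Interferon-stimulated genes were mostly higher in 786-M1A. These genes are switched on when type I interferon activates the factor complex ISGF3, and they encode antiviral effectors. All 49 members passed the filter. In 786-M1A 47 were higher, 41 of them by at least 2-fold, against a share of 14.3% for all genes tested, and the median log2 fold change was −2.12. The summed level of the list lay between 8491 and 8895 CPM in 786-M1A and between 2788 and 3038 CPM in OS-LM1. RSAD2 (viperin) stood at 71.0, 48.5, 56.9 and 56.1 CPM in 786-M1A and at 1.00, 1.87, 1.45 and 1.39 CPM in OS-LM1, a 40.7-fold difference (log2 −5.35 ± 0.16 SE, adjusted p = 7.8e-15). MX2, which restricts retroviruses, was 26.5-fold higher in 786-M1A (144 ± 14 against 5.44 ± 0.98 CPM). GBP2, a guanylate-binding protein, was the member at least 2-fold higher in OS-LM1, at 6.20 ± 0.58 against 2.21 ± 0.19 CPM.

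Promoters of interferon-stimulated genes are known for the response element to which ISGF3 binds, and its core GAAANNGAAA was searched on both strands from 250 bases before to 50 bases after the RefSeq start in GRCh38.p14. A promoter was matched for 38 of the 49 genes, and 23 of the 38 held the core (60.5%), against 2.99% of the 11746 promoters matched among genes tested and 3.57% of all 35116. A match describes letters and shows no binding. Since such genes are known for this element, the high share follows from the choice of list and does not bear on these libraries. A stretch from each of 5 genes of the list is shown to let the element be seen beside its gene's values. In each stretch 1 core is in capitals and runs 5′ to 3′. The stretches of ISG15 and BST2 also hold a further core that overlaps the capitals and is not marked. The 5 were chosen after their values were seen. ISG15 is shown at chr1:1013380-1013409 on the plus strand. The others are on the minus strand, EPSTI1 at chr13:42992272-42992301, BST2 at chr19:17405741-17405770, IFI6 at chr1:27672329-27672358 and IFIT1 at chr10:89392497-89392526.
ISG15: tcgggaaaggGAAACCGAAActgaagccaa
EPSTI1: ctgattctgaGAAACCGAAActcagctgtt
BST2: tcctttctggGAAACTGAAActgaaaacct
IFI6: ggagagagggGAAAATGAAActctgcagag
IFIT1: accgaaagggGAAAGTGAAActaaagctag

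ISG15, a ubiquitin-like modifier, stood at 370, 423, 391 and 385 CPM in 786-M1A and at 47.8, 50.7, 48.6 and 44.5 CPM in OS-LM1. EPSTI1 stood at 29.2, 26.7, 29.6 and 29.6 CPM in 786-M1A and at 1.03, 1.33, 1.51 and 1.24 CPM in OS-LM1. BST2 (tetherin) stood at 464, 501, 547 and 507 CPM against 116, 112, 113 and 121. IFI6, a regulator of apoptosis, stood at 651, 728, 648 and 701 CPM in 786-M1A and at 25.8, 31.4, 30.3 and 26.6 in OS-LM1. IFIT1, which binds viral RNA, stood at 142, 98.2, 111 and 112 CPM against 13.0, 19.0, 15.5 and 15.1. Every 786-M1A library was above every OS-LM1 library for these 5, as for 45 of the 49 members, beside 64.2% of all genes tested whose groups did not overlap in either direction.

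The direction was not kept in the shPAX8 libraries. There 23 of the 49 genes were at least 2-fold higher in OS-LM1 and 5 in 786-M1A, with a median log2 difference of 0.55, beside 45.5% of all genes tested that were at least 2-fold apart between the lines in those libraries (22.1% higher in OS-LM1 and 23.4% in 786-M1A). EPSTI1 stood at 28.8 CPM in 786-M1A with sgNTC18 and at 0.09 and 0.06 CPM with shPAX8-1 and shPAX8-2, whereas OS-LM1 stood at 1.28, 5.78 and 2.43 CPM. The line difference with sgNTC18 was at least 1 log2 unit below that with shPAX8 for 42 of the 49 genes and above it for 0, against 13.9% and 15.5% of all genes tested. The summed level of the list lay between 8410 and 8852 CPM in the 786-M1A sgNTC18 libraries and between 1941 and 3701 CPM in the other 20 libraries. For 45 of the 49 genes every 786-M1A sgNTC18 library was above every 786-M1A shPAX8 library, and for 0 below. In OS-LM1 the same counts were 13 above and 12 below. The share of all genes was not computed for these counts, so they cannot be set against a background. The construct, PAX8 depletion and any difference in handling between the library sets cannot be told apart here.

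**Figure D3:**
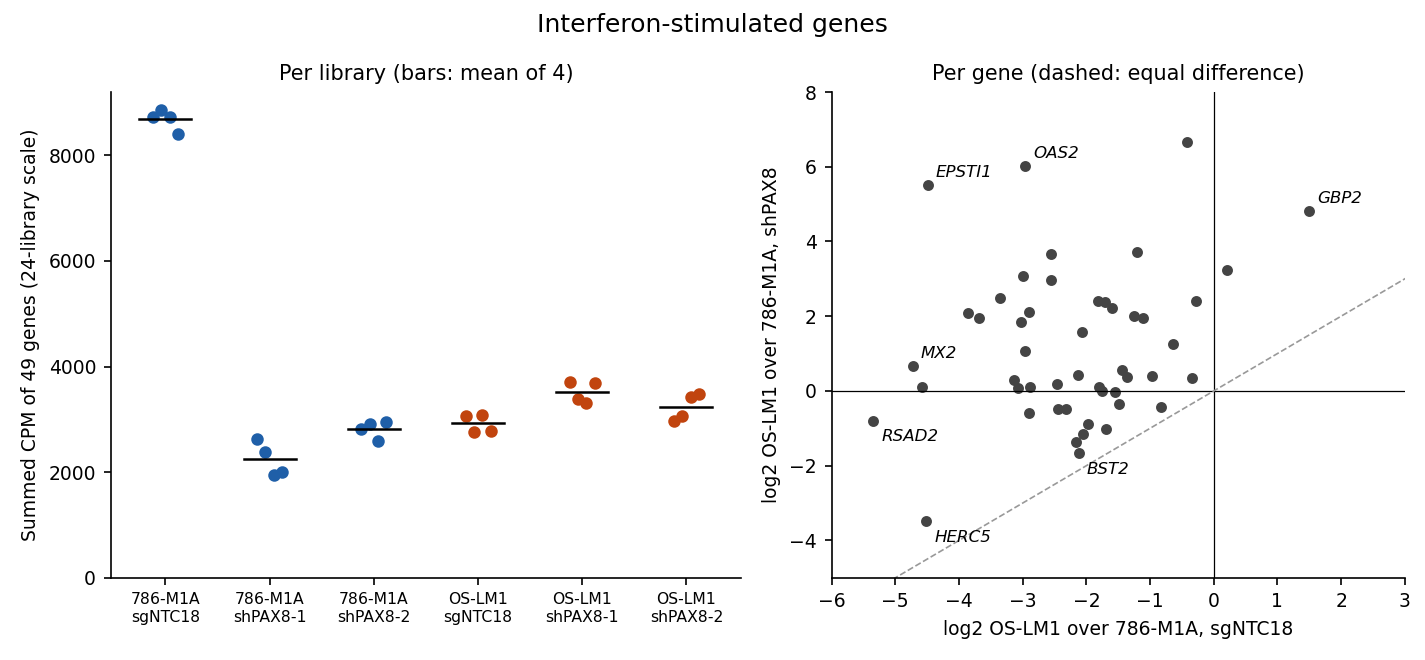
Left, summed CPM of the 49 interferon-stimulated genes in each of the 24 libraries by group (bars, mean of 4), where the 4 786-M1A sgNTC18 libraries lie between 8410 and 8852 and no other exceeds 3701. Right, log2 OS-LM1 over 786-M1A of each gene in the sgNTC18 (x axis) and shPAX8 libraries (y axis), with 42 of the 49 genes called at least 1 log2 unit apart between both.

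Antigen presentation genes were more often higher in 786-M1A. Of 29 tested, 13 were at least 2-fold higher in 786-M1A and 5 in OS-LM1. The class I gene HLA-C was 9.25-fold higher in 786-M1A (924 ± 115 against 99.9 ± 13 CPM), and ULBP2, a stress ligand of the NKG2D receptor, stood at 16.0 ± 1.1 CPM there against 0.04 ± 0.05. The class II pathway genes CD74 (28.0-fold) and HLA-DMA (11.5-fold) were higher in OS-LM1. HLA genes are close paralogues whose reads the counting could split, so their values are uncertain.

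Chemokine, interleukin and receptor genes were at least 2-fold higher in OS-LM1 for 12 of 35 and in 786-M1A for 6. CXCL1, a neutrophil attractant, stood at 213, 125, 170 and 152 CPM in OS-LM1 and at 9.66, 12.1, 13.9 and 10.3 CPM in 786-M1A, a 14.3-fold difference. CCL20 stood at 9.84 ± 1.8 CPM in OS-LM1 against 0.21 ± 0.12. Of 22 NF-kB subunit and feedback genes, 2 were at least 2-fold higher in OS-LM1, BIRC3 (4.15-fold) and TNFAIP3 (2.09-fold), and 0 in 786-M1A.

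Growth factors and their receptors differed in both directions. Of 41 secreted factors, 18 were at least 2-fold higher in OS-LM1 and 11 in 786-M1A, and of 36 receptors 13 and 4. IGFBP5, an IGF-binding protein, stood at 125, 112, 140 and 129 CPM in OS-LM1 and was 387-fold higher there. PDGFD, a ligand of PDGFRB, stood at 11.9 ± 0.70 CPM in OS-LM1 against 0.07 ± 0.04, in the reverse order of its receptor. The EGFR ligand EREG (epiregulin) stood at 204, 154, 176 and 169 CPM in 786-M1A and was 586-fold higher there, and the inhibin chain INHBB was 67.2-fold higher there.

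Among receptors, the insulin receptor INSR stood at 15.3, 17.4, 14.5 and 16.5 CPM in OS-LM1 and had no count in 786-M1A with sgNTC18, at least 126-fold lower. In the 786-M1A shPAX8 libraries it stood at 0.65 and 0.51 CPM. FGFR2 was 7.72-fold higher in OS-LM1, and NRP2, a coreceptor for VEGF and semaphorins, 2.70-fold higher in 786-M1A.

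NRF2 and antioxidant genes, which answer electrophilic and oxidative stress, were mostly higher in OS-LM1. Of 29 tested, 20 were called higher in OS-LM1 and 7 in 786-M1A, and 12 were at least 2-fold higher in OS-LM1 and 0 in 786-M1A, with a median log2 fold change of 0.67. The organic anion exporter ABCC2 stood at 116, 149, 118 and 136 CPM in OS-LM1 against 3.24 ± 0.43 in 786-M1A (log2 5.32), and the aldo-keto reductase AKR1C1 stood at 10.1 ± 0.74 CPM against 0.34 ± 0.08. AKR1C genes share sequence, so their reads could be split by the counting. Of 6 metallothionein genes tested, 2 were at least 2-fold higher in each line. MT1G stood at 8.67 ± 0.47 CPM in OS-LM1 against 0.16 ± 0.13, while MT1X was 2.05-fold higher in 786-M1A. This family, MT1E included, has near-identical members, so these values are uncertain in the same way.

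Lipid storage genes were at least 2-fold higher in OS-LM1 for 5 of 36 and in 786-M1A for 9. PPARG, the adipogenic nuclear receptor, was 4.49-fold higher in OS-LM1 and FABP6 3.83-fold, and the desaturase FADS2 was 6.91-fold higher in 786-M1A (325 ± 16 against 47.0 ± 2.8 CPM). Of 28 p53 target genes, 8 were at least 2-fold higher in OS-LM1 and 2 in 786-M1A. SPATA18 was 28.2-fold and TP53I3 6.69-fold higher in OS-LM1, and RRM2B, a ribonucleotide reductase subunit encoded on chromosome 8, was 3.19-fold and PLK3 2.14-fold higher in 786-M1A.

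Few cell cycle genes were at least 2-fold apart. Of 54 G2/M genes 1 was at least 2-fold higher in OS-LM1 and 3 in 786-M1A, and of 43 S-phase genes 3 and 6, with medians of 0.00 and 0.03, which were −0.10 and −0.14 with the GC trend removed. KIF23 was 2.07-fold and PCNA 2.50-fold higher in OS-LM1, and HJURP (2.88-fold), TUBB4B (2.08-fold), MCM4 (2.86-fold) and MRPL36 (2.69-fold) in 786-M1A. TIPIN was 2.71-fold higher in OS-LM1. Of 20 tested G1 genes 0 were at least 2-fold higher in OS-LM1 and 3 in 786-M1A, with E2F5 at 5.20-fold and CDKN2D at 4.30-fold, and of 11 MYC network genes 1 and 2, with MXD4 at 2.52-fold and MXD3 at 2.38-fold in 786-M1A. In the shPAX8 libraries, 35 of the 54 G2/M genes were at least 2-fold higher in 786-M1A and 1 in OS-LM1, against 23.4% and 22.1% of all genes tested there.

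Of 27 ccRCC tumour suppressor and mTOR pathway genes, 0 were at least 2-fold higher in OS-LM1 and 2 in 786-M1A. MTAP, a methionine salvage enzyme that neighbours CDKN2A, stood at 42.5, 36.7, 37.4 and 37.4 CPM in 786-M1A and at 3.06, 2.66, 2.90 and 2.91 CPM in OS-LM1, a 13.3-fold difference, and TSC1 was 2.28-fold higher in 786-M1A. Of 33 HOX genes 3 were at least 2-fold higher in OS-LM1 (HOXA7 13.7-fold, HOXC10 5.27-fold) and 9 in 786-M1A (HOXD10 14.1-fold, HOXD11 6.05-fold). Most cancer-testis antigens are normally restricted to germ cells. Of the 11 tested, 7 were at least 2-fold higher in OS-LM1 and 0 in 786-M1A. The median log2 fold change of the 11 was 4.25, or 2.90 with the 3 genes without a count in 786-M1A at their bound. The 7 were read at low levels, with means from 0.85 to 2.27 CPM in OS-LM1. The 3 other members MAGED1, MAGED2 and PRAME were called higher in 786-M1A. Summed over the list, 786-M1A was higher, at 763 to 847 CPM against 562 to 613. Most of each sum was MAGED1, at a mean of 619 CPM in 786-M1A and 415 in OS-LM1, and MAGED2 (153 and 131). The summed level therefore says little about the other members. In the shPAX8 libraries the median was 0.36, with 5 members at least 2-fold higher in OS-LM1 and 3 in 786-M1A. Of 29 immediate early and heat shock genes 2 were at least 2-fold higher in OS-LM1, HSPA1A (2.37-fold, a gene with a near-identical copy) and EGR1 (2.27-fold), and 11 in 786-M1A, KLF4 (5.10-fold) and IER3 (3.40-fold) among them. With the GC trend removed, these counts were 3 in OS-LM1 and 5 in 786-M1A. The lysosomal glycoprotein CD68 was 2.52-fold higher in 786-M1A, and COL1A1 4.62-fold higher in OS-LM1.

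The direction of the difference varied between chromosomes. Tested genes of chromosome 9 had a median log2 fold change of −0.67 ± 0.01 (SD over libraries), and 66.2% of the 604 were higher in 786-M1A and 13.4% in OS-LM1. The SD was taken over medians of log2 CPM, each library set against the mean of the other line. It is thus not the spread of the edgeR median beside it. For chromosome 9 these medians ran from −0.64 to −0.61 over the OS-LM1 libraries. Chromosomes 8 (−0.52 ± 0.05) and 7 (−0.41 ± 0.03) also had medians below 0. Chromosome 13 had the highest median, 0.72 ± 0.06, with 68.7% of its 275 genes higher in OS-LM1, followed by chromosomes 15 (0.43 ± 0.04) and 12 (0.37 ± 0.02).

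Along the chromosomes, medians were taken over 13996 windows of 40 consecutive tested genes, and from the fifth to the 95th percentile they ran from −0.84 to 0.74. The SD beside a window was computed as for the chromosomes. The lowest window, from TSTA3 to RECQL4 at chr8:143612618-144517833 in GRCh38, had a median of −1.93 ± 0.12, and 38 of its 40 genes were at least 2-fold higher in 786-M1A. The adjoining window from MYC to TIGD5 at chr8:127735434-143603224 had a median of −1.39 ± 0.08, with 25 of 40 genes at least 2-fold higher in 786-M1A, although MYC itself was not called. Other low windows lay at chr9:136440105-137273542 (−1.45 ± 0.16) and chr20:62238521-64072347 (−1.26 ± 0.13), which holds SLC17A9. The highest window, from RASSF2 to SNX5 at chr20:4780023-17968794, had a median of 1.38 ± 0.04, with 27 of 40 genes at least 2-fold higher in OS-LM1, PCNA among them. It was followed by chr5:52787916-65481920 (1.36 ± 0.11).

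Gene GC content moved with the line difference, with a rank correlation of −0.26 across 14638 genes, which are not independent replicates. With each library's GC trend removed, 20 of 23 chromosomes kept their sign, and chromosomes 10, 19 and 22 did not. The window at chr8:143612618-144517833 then had a median of −1.41 and that at chr20:4780023-17968794 one of 1.21. The same windows had medians of −1.74 and 1.71 in the shPAX8 libraries. With the GC trend removed, the low windows at chr9:136440105-137273542 and chr20:62238521-64072347 shrank to medians of −0.82 and −0.70. Without that removal, the fifth percentile over all windows was −0.84. The windows at chr8:127735434-143603224 and chr5:52787916-65481920 then stood at −1.14 and 1.11 with the trend removed. By chromosome, 18 of 23 kept their sign in the shPAX8 libraries. Chromosomes 1, 2, 3, 6 and X did not. Chromosome X had a median of 0.29 with sgNTC18 and −0.51 with shPAX8. Medians of chromosomes 1, 2, 3 and 6 were near 0 in both, from −0.06 to −0.03 with sgNTC18 and from 0.03 to 0.08 with shPAX8. Chromosome 7 kept its sign but stood at −0.41 and −0.04.

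**Figure D4:**
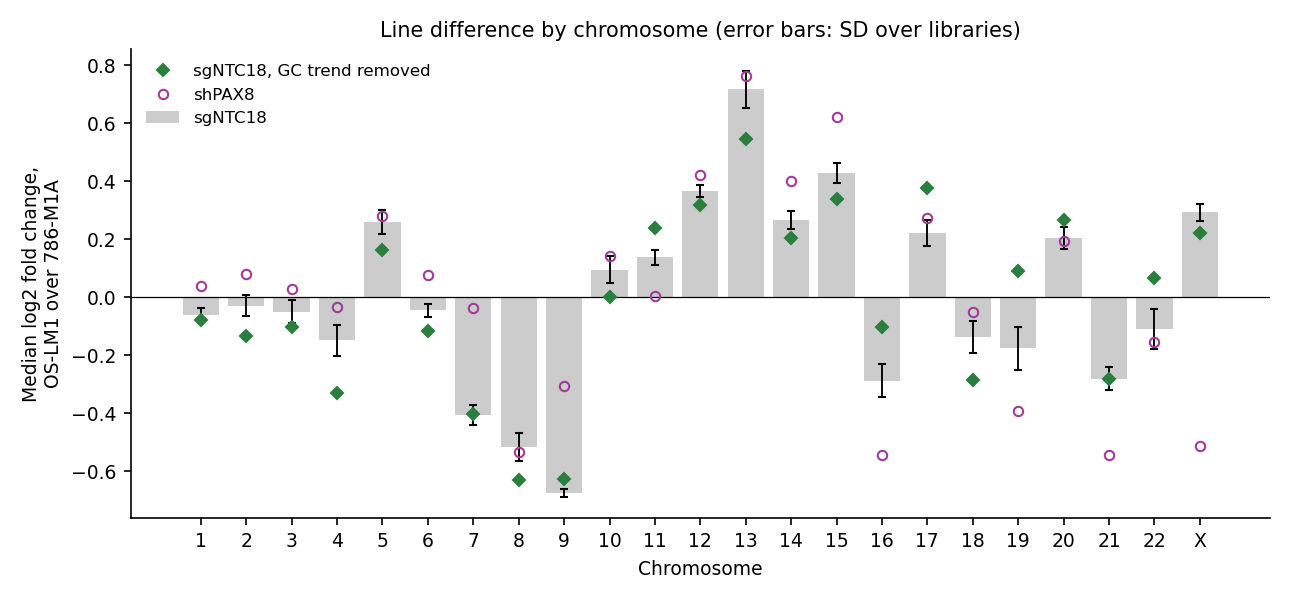
Median log2 fold change of OS-LM1 over 786-M1A by chromosome in the sgNTC18 libraries (bars), in the same libraries with the GC trend removed (diamonds) and in the shPAX8 libraries (circles). Error bars are the SD over libraries of medians of log2 CPM, not of the edgeR median. Chromosomes 8 and 9 are lowest and 13 highest with sgNTC18. The circles of chromosomes 1, 2, 3, 6 and X lie on the other side of 0 from their bars.

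The line difference was also compared between the library sets gene by gene. Of 4138 genes at least 2-fold apart with sgNTC18 and tested over all 24 libraries, 3676 (88.8%) had the same sign in the shPAX8 libraries, 2875 (69.5%) were at least 2-fold apart there with the same sign, and 153 (3.70%) were at least 2-fold apart with the opposite sign. Over all 14818 genes tested in both fits, 10813 had the same sign. Tested as a contrast, the line difference with sgNTC18 differed from that with shPAX8 by at least 1 log2 unit for 4617 of 15665 genes (29.5%), 2434 above and 2183 below, and for 9203 (58.7%) with no minimum size.

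Among the named genes, 59 differed by at least 1 log2 unit. CDH13 stood at 177 ± 12 CPM in 786-M1A and 9.63 ± 1.2 in OS-LM1 with sgNTC18, a log2 difference of −4.20, which was −11.19 in the shPAX8 libraries, where OS-LM1 stood at 0.32 and 0.12 CPM. DSP was read at 15.8 CPM in OS-LM1 with sgNTC18 alone, since it was under 0.1 CPM in the 4 shPAX8 groups. MME, 9.14-fold higher in 786-M1A with sgNTC18, stood at 197 and 125 CPM in OS-LM1 and at 98.1 and 60.1 CPM in 786-M1A with shPAX8-1 and shPAX8-2. ANGPTL4 (log2 −3.04 with sgNTC18 and 3.36 with shPAX8) and PAX8 itself (−0.40 and 1.48) also reversed. PAX8 was the target of the constructs in the shPAX8 libraries.

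**Figure D5:**
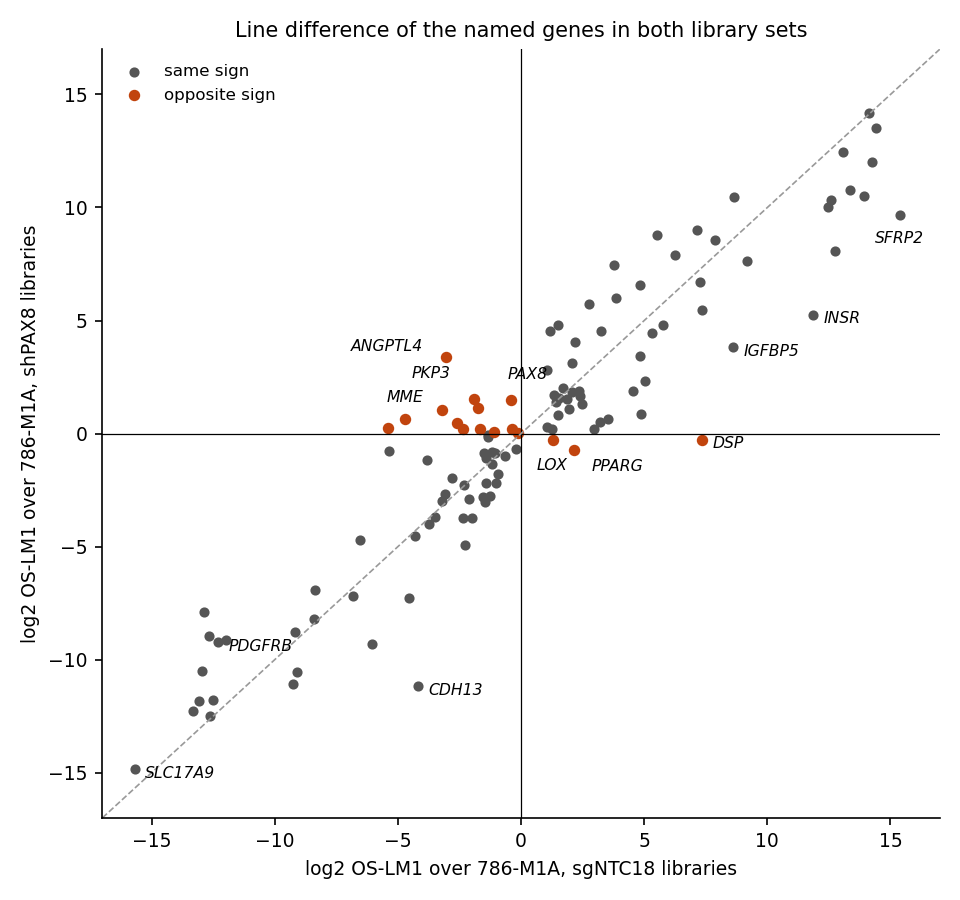
log2 OS-LM1 over 786-M1A of 116 of the 117 named genes (1 had no usable estimate with shPAX8) in the sgNTC18 (x axis) and shPAX8 libraries (y axis), with a dashed line of equal difference. The 100 grey genes have the same sign in both and the 16 orange genes the opposite sign, and labels mark genes the text describes.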

How the data were processed

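The 8 sgNTC18 libraries were compared, 4 per line. The authors mapped reads to hg38 with RSEM and bowtie2 (versions not given in the sources used here) and deposited, per gene and library, RSEM expected counts without normalization and TPM. The library kit is a KAPA stranded mRNA kit per the labels and a Lexogen kit per the paper's methods, and the strand setting is not given. The deposited TPM values served only as a check on levels, and no other unit was used. Expected counts of 26475 genes were rounded to whole numbers, and R 4.3.3 was used. Genes passing filterByExpr of edgeR 4.0.16 were normalized by TMM and tested with its robust quasi-likelihood test, with Benjamini-Hochberg adjustment over all genes tested and a threshold of 0.05. The line difference with sgNTC18 was set against that with shPAX8 in a fit of all 24 libraries. CPM use TMM-scaled sizes, and those of shPAX8 groups and summed list levels by group come from the 24-library scale.

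The members and the 33 gene lists were chosen with earlier results of these data known, so lists are described by counts and medians, without tests. The rule for named genes takes the 10 largest differences each way with groups that do not overlap and an average log2 CPM of at least 3, 9 genes of the study (a further one is not reported here), and up to 2 genes each way per list that differ by at least 2-fold with an average log2 CPM of at least 2, 117 genes in all. Genes of chromosome Y were not named. Markers of cell types and the lists without a named member are given as counts. Symbols of 26329 genes were matched to RefSeq (GRCh38.p14) for positions and promoters. Exact binomial intervals and floors of 3 counts per library cover counting error only. Procedures were tested on simulated data. For the line comparison, 100 genes each were changed by 1 and by 2 log2 units among 14769. Of these, 93% and 100% were recovered, and 7.2% of calls were false. Far fewer genes were changed there than differed between the lines, so the simulation does not test normalization under so many differences. Alternatives were DESeq2 1.42.0, its size factors, no low-count filter, thinning to the smallest library, a spline fit that takes out the GC trend within a library, a replicate block, each library left out, stricter thresholds and either shPAX8 construct alone. Windows and chromosomes without the GC trend, and list medians under each alternative, were added after the data were seen.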

Additional observations from a re-analysis of the deposited data

Results flagged for a closer look

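In 6 of 189 groups of 4 libraries tested, 1 library lay far from the other 3 of its group, where chance alone flags about 1 in 20 groups, or 9.45. These were HIF1A in 786-M1A replicate 4 (9.40 CPM), ITGB5 in OS-LM1 replicate 1 (115 CPM), BIRC3 in 786-M1A replicate 1 (42.7 CPM), MTAP in 786-M1A replicate 1 (42.5 CPM), HOXC10 in OS-LM1 replicate 1 (33.5 CPM) and MCM4 in 786-M1A replicate 1 (322 CPM). The groups of the lines did not overlap for any of the 6 genes.

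The line difference with sgNTC18 differed from that with shPAX8 for 59 of 117 named genes, by an edgeR contrast over 24 libraries with a minimum of 1 log2 unit. Values are the log2 difference with sgNTC18 minus that with shPAX8, where a negative value means that OS-LM1 stood lower relative to 786-M1A with sgNTC18. Interferon, immune and stress genes were at MX2 −5.39, RSAD2 −4.55, EGR1 −3.34, GBP2 −3.30, CCL20 −3.27, IER3 −2.88, KLF4 −2.55, CXCL1 −2.14, TNFAIP3 −1.75, CD68 −1.16, HSPA1A 1.04, CD74 1.39 and HLA-DMA 2.86. Renal factors and genes at the centre of the study were at PAX8 −1.87, CYTIP −1.85, WT1 −1.46, HIF1A −1.05 and MAF 2.64.

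Matrix, adhesion and junction genes were at MMP13 −5.64, PKP3 −3.43, LAMA4 −1.86, COL1A1 −1.82, COL5A2 −1.64, ITGB6 −1.29, LAMA3 1.59, LOX 1.62, COL6A3 1.82, PKP2 1.88, MMP7 2.66, TAGLN 2.71, MMP19 2.73, MCAM 2.75, CDH13 6.997 and DSP 7.62. Metabolic and transport genes were at ANGPTL4 −6.40, ELOVL2 −4.68, MME −4.22, MT1X 1.18, SLC2A3 1.73, PPARG 2.90 and AKR1C1 3.99. Growth factor genes and receptors were at METRN −3.60, PDGFRB −3.06, PTHLH 1.18, FGFR2 2.73, INHBB 3.27, IGFBP5 4.80 and INSR 6.32. HOX, p53 and cell cycle genes were at HOXA7 −3.68, HOXD11 −3.05, TP53I3 −2.97, HOXD10 −2.64, RRM2B −1.87, SPATA18 −1.73, MXD4 −1.27, PLK3 −1.16, HJURP 1.28, E2F5 1.37 and MXD3 1.50. With shPAX8-2 alone the difference of METRN was −2.64 (adjusted p = 0.10), of WT1 −1.18 (0.092) and of ITGB6 −0.79 (0.056), and that of WT1 also lost its call without OS-LM1 replicate 1, 2 or 4. The construct and the library set cannot be told apart.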

How the results depend on the processing

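No named gene changed direction under any alternative. Under each, 115 of 117 kept their call between the lines at an adjusted p under 0.05, PAX8 and CCND1 being the exceptions. The 2-fold minimum was not kept by all. With the GC trend removed, 0 G2/M genes were at least 2-fold higher in OS-LM1 and 1 in 786-M1A. The number of genes that differed ran from 9190 (adjusted p under 0.01) to 11115 (no low-count filter), with 10078 after thinning to the smallest total and 10900 in DESeq2. At a minimum log2 fold change of 2, 1697 genes differed, 933 higher in OS-LM1 and 764 in 786-M1A. Without 1 library, the number that differed ran from 10052 to 10646 (5029 to 5383 higher in OS-LM1, 4988 to 5263 in 786-M1A) and at 2-fold from 4217 to 4410 (2045 to 2147 and 2109 to 2274). Line differences that differed between library sets then ran from 4466 to 4699, and genes read in 1 line alone from 56 to 62 (OS-LM1) and 44 to 49 (786-M1A). With the GC trend removed, medians were −0.63 for chromosome 9, −0.63 for 8, 0.34 for 15 and 0.54 for 13, and 1.21 and −1.41 for the highest and lowest window. The medians of chromosomes 10 (−0.0014), 19 (0.09) and 22 (0.07) then changed sign, and so did list medians for distal nephron (0.12), glycolysis (0.05), collagen (0.32), tumour suppressor (0.10), S-phase (−0.14) and G2/M genes (−0.10). With 20 genes in a window the extremes were 1.58 and −2.11. Correlations between the lines of deviations from the group mean were −0.45, 0.16, 0.05 and 0.28 for libraries of the same replicate number. For different numbers they ran from −0.38 to 0.41. Centring within groups of 4 ties these values together, so they cannot settle whether the libraries were paired. With the replicate numbers as a block 10367 genes differed (5207 and 5160 by direction), 10259 of them among the 10538, 4203 at 2-fold (2048 and 2155) and 4560 between library sets. Depth limits calls for low genes, more so in 786-M1A.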

Other observations

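Some genes outside the lists stood on opposite sides in both library sets, and those given here were chosen after their values were seen. SRGN, the proteoglycan serglycin, stood at 76.6 CPM in OS-LM1 and 0.13 in 786-M1A with sgNTC18, whereas its log2 line difference with shPAX8 was −3.16. UGT1A10, a glucuronosyltransferase that shares exons with its neighbours, stood at 89.8 and 7.17 CPM with sgNTC18 and had a log2 line difference of −4.74 with shPAX8. The keratin KRT81 stood at 19.8 and 0.06 CPM, with a line difference of −1.07 in the shPAX8 libraries. PTGES, a prostaglandin E synthase, stood at 4.14 CPM in OS-LM1 and 112 in 786-M1A, with a line difference of 1.84 in the shPAX8 libraries.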
